A study of Mus musculus with 9 samples.

Results

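Dot1l and 9 genes whose products work with it in transcription elongation were followed across the 3 Dot1l genotypes. The genes were Dot1l itself, Mllt10, Mllt6, Mllt1, Mllt3, Aff1, Aff4, Ell, Cdk9 and Ccnt1. They were chosen by name, with earlier results of these data known, and each matched 1 of the 47729 Ensembl identifiers of the count files. All 10 were among the 17671 genes that passed the filter on low counts, and their counts lay between 320 (Ell) and 10183 (Aff4) in a library.

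RNA was sequenced from dissected ventral midbrain of C57/Bl6 mice at 180 days, in 9 libraries with 3 per genotype. All mice carried Cre recombinase on 1 Pitx3 allele (Pitx3-Cre/+) and a YFP reporter behind a floxed stop in the Rosa locus. Controls had no floxed Dot1l allele (Dot1l(+/+)), heterozygotes had 1 (Dot1l(fl/+)) and homozygotes had 2 (Dot1l(fl/fl)). The text of the series describes sorted cells at E15.75, whereas the label of every library gives dissected tissue at 180 days. Cre from the Pitx3 locus is made in dopamine neurons after their last division, so the dissected tissue also held cells whose Dot1l alleles were never recombined, and the share of recombined cells was not measured. The controls carried Cre and the reporter too, so the design compares numbers of floxed alleles and not the presence of Cre. Each library was a pool of 3 samples, assembled so that a nest gave 1 mouse of every genotype, and the spread between libraries is therefore a spread between pools.

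DOT1L is the methyltransferase that places methyl groups on lysine 79 of histone H3, a mark that lies over the bodies of transcribed genes. AF10 and AF17 bind DOT1L directly and favour its activity, and ENL and AF9 read acylated histones through their YEATS domains and connect either DOT1L or the super elongation complex to chromatin. That complex is built on an AFF scaffold and holds an ELL protein and P-TEFb, the kinase CDK9 with its cyclin T, which releases paused RNA polymerase II into elongation.

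The floxed segment of Dot1l is exon 5, a coding exon near the start of the reading frame, and its sequence is given because it shows what recombination takes out of the transcript. In transcript Dot1l-201 (GENCODE M21 on GRCm38, 28 exons and 6808 bases) it is chr10:80771138-80771366 on the + strand. The exon has 229 bases and follows 264 coding bases, or 88 codons. The capital letter marks the base by which its length exceeds a multiple of 3.

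exon 5: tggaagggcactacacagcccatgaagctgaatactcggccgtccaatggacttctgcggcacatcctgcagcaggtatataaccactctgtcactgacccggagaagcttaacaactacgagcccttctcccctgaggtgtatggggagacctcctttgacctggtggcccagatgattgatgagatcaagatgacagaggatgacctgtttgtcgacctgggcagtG

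Joining exon 4 to exon 6 shifts the reading frame. The sequence below runs from the last 30 bases of exon 4 (chr10:80768639-80768668) through exon 6 (chr10:80773104-80773198) to the first in-frame stop, in capitals, in exon 7 (chr10:80773706-80773736).

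exon 4 joined to exon 6: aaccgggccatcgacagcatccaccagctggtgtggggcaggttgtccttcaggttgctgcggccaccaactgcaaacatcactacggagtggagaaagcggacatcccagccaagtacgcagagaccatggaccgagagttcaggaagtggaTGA

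This frame ends after 129 codons, 41 of them past the junction, where the full frame has 1540 codons. The stop lies in exon 7 with 21 exons after it. Exon 5 makes up 3.36% of the bases of Dot1l-201 and 2.63% of all exon bases of the gene. If every cell lost the exon and the rest of the transcript stayed at its level, the count of the gene would change by only -0.05 on the log2 scale (-0.04 over all exon bases). The files hold 1 count per gene and none per exon, so they do not show whether exon 5 was lost, and the gene count of Dot1l is no check of the genotype.

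**Figure D1:**
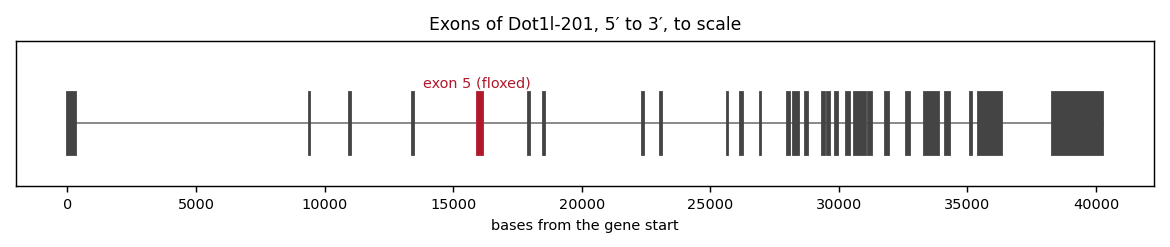
Exons of transcript Dot1l-201 drawn to scale from 5′ to 3′ against the distance in bases from the gene start, with the floxed exon 5 in red. Exon 5 holds 229 of the 6808 bases and lies ahead of 23 of the 28 exons.

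The libraries held 16422135 to 28403218 counts on genes. Markers of dopamine neurons, 12 of 12 tested and none at 0 in any library, were read as a check of the dissection. Their summed level was 752 to 842 CPM (counts scaled to the size of the library with TMM factors) in controls, 608 to 757 in Dot1l(fl/+) and 594 to 623 in Dot1l(fl/fl). Choroid plexus markers (4 genes) summed to 53.6 to 137 CPM in controls, 95.8 to 551 in Dot1l(fl/+) and 27.8 to 35.4 in Dot1l(fl/fl), the highest value being that of Dot1l(fl/+) replicate 3. Dot1l(fl/+) replicates 2 and 3 had the largest trend with gene length, described below, and Dot1l(fl/fl) replicate 2 had a smaller one in the same direction.

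Across all 9 libraries the 10 genes covered a wide range of levels per length of exon. Aff4, a scaffold of the super elongation complex, was highest at 26.1 ± 1.43 CPM per kilobase of exon (SD over the 9 libraries), above 89.8% of all genes tested. Mllt6 (AF17) followed with 21.4 ± 1.16, and Mllt1 (ENL) with 15.6 ± 0.54 in the same unit. These first 3 ranges did not overlap each other or those of the genes below them.

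Next on the scale per length were Cdk9, the kinase, with 10.1 ± 0.46 and Dot1l with 9.06 ± 0.91. Ccnt1 (6.86 ± 0.41), Mllt10 (6.82 ± 0.51) and Ell (6.40 ± 0.37) came close together. From Cdk9 down to Ell each gene's range overlapped that of its neighbour, so the order of neighbours is not resolved beyond the spread between libraries, while the lowest Cdk9 value (9.46) lay above the highest of Ccnt1, Mllt10 and Ell (7.61, 7.49 and 7.05). Dot1l was above 68.1% of the genes tested.

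Mllt3 (AF9) with 3.54 ± 0.19 and Aff1 (AF4) with 3.05 ± 0.26 were lowest, their ranges overlapped, and both lay under the median of all genes tested, 4.58 CPM per kilobase. With the longest transcript as the length in place of the union of all exons, Mllt3 (7.00 ± 0.37) moved above Ell (6.47 ± 0.37), with overlapping ranges, and to the upper side of the median, above 53.9% of genes. Aff1 stayed on the lower side, above 38.3%. Every one of the 10 genes was present in this tissue, and the levels do not tell which cells made them.

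**Figure D2:**
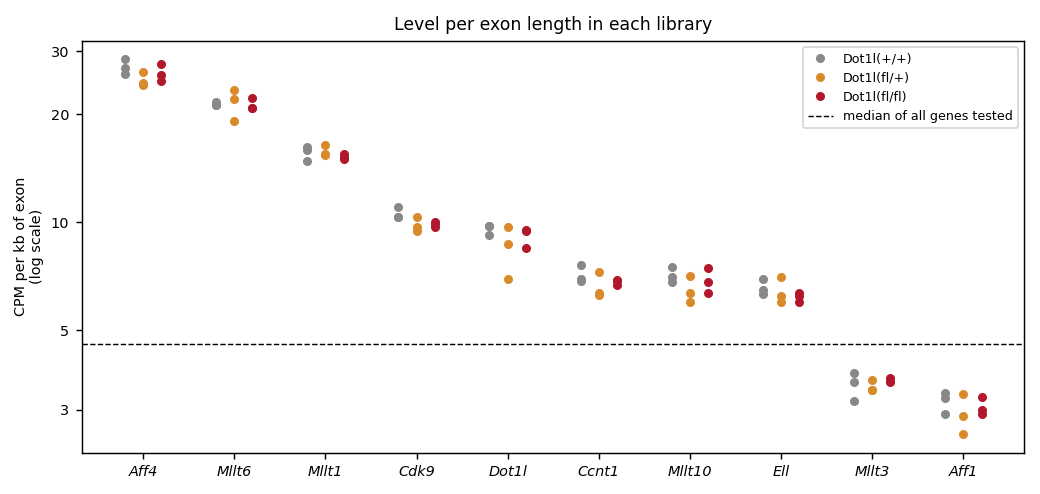
CPM per kilobase of exon on a log axis for each gene, with 1 point per library, coloured by genotype; the dashed line is the median of all genes tested (4.58). Aff4, Mllt6 and Mllt1 occupy separate ranges, Cdk9 to Ell form an overlapping series, and Mllt3 and Aff1 lie below the line in all 9 libraries.

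Several of the genes are close relatives that can fill the same position in a complex, and ratios of their levels per length within a library need no scaling between libraries. RNA of Mllt1 (ENL) was above that of Mllt3 (AF9), with a ratio of 4.4 as the mean of 9 libraries and a range from 3.91 to 5.03. With the longest transcript as length this ratio was 2.4, and no protein was measured. For the partners of DOT1L, Mllt10 was at 0.319 of the level of Mllt6 (0.272 to 0.354). Aff1 was at 0.117 of the level of Aff4 (0.105 to 0.138). Ccnt1 was at 0.68 of the level of its kinase Cdk9 (0.609 to 0.767). The side of 1 on which each ratio lay was the same in all 9 libraries.

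The ratios were compared between genotypes in 12 exact permutation tests of 3 against 3 libraries, which cannot pass 0.05 since their smallest two-sided p is 0.1. Ratios overlapped in 11 of the 12 comparisons. The log2 ratio of Mllt1 to Mllt3 was 2.07 ± 0.01 in Dot1l(fl/fl) and 2.18 ± 0.09 in Dot1l(fl/+), a difference of -0.11 (exact p = 0.1, adjusted p = 1). The controls, at 2.16 ± 0.18, covered both of those groups.

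Dot1l was measured at 85.2, 80.2 and 85.1 CPM in the 3 control libraries (replicates 1, 2 and 3 here and in the values that follow). The heterozygotes stood at 84.2, 60.6 and 75.6 CPM. The homozygotes stood at 82.1, 73.9 and 82.9 CPM. The lowest value belonged to Dot1l(fl/+) replicate 2, while replicate 1 of the same genotype lay within the range of the controls, so the 3 groups overlapped. Within each replicate number both floxed values lay below the control value, though no label says that equal numbers share nests.

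The level of Dot1l did not pass the test in either floxed genotype. Its log2 fold change in Dot1l(fl/+) against controls was -0.19 (SE 0.09, 95% interval -0.39 to 0.02), with an edgeR p of 0.069 and an adjusted p of 0.62, and 2 of the 3 heterozygous libraries lay under every control. Homozygotes against controls gave -0.07 (SE 0.09, interval -0.27 to 0.13, adjusted p = 0.999). Dot1l(fl/fl) against Dot1l(fl/+), at 0.12 (SE 0.09, interval -0.09 to 0.32), also missed the threshold with an adjusted p of 0.85. In an alternative fit with a block for the replicate number, Dot1l in Dot1l(fl/+) against controls was at -0.19 (SE 0.07). Its edgeR unadjusted p was 0.016 and its adjusted p was 0.479.

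As intervals, these tests leave room for a Dot1l count in Dot1l(fl/+) from 23.6% lower to 1.16% higher than in controls, and in Dot1l(fl/fl) from 17.2% lower to 9.68% higher. In whole tissue, fewer cells of a type and less RNA per cell cannot be told apart. The value in heterozygotes rested on replicate 2: without it the log2 fold change was -0.06, and without replicate 1 it was -0.29 (edgeR adjusted p = 0.232, the smallest over all settings). Without Dot1l(fl/+) replicate 2 the difference between homozygotes and heterozygotes turned to -0.01. The homozygote value against controls was -0.02 without homozygous replicate 2.

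The SD of its log2 level within genotypes was 0.15, above that of 94.4% of 1131 genes within 0.25 log2 units of its mean CPM, whose median SD was 0.08. Counting alone would give 0.03. Most of this came from 1 library, since without Dot1l(fl/+) replicate 2 the SD was 0.08, above 70.7% of the same genes. Replicate 2 also held the lowest Dot1l value of the controls (80.2 CPM) and of the homozygotes (73.9 CPM). The part of the replicate number in this spread was not tested. Cdk9 and Mllt1 were among the steadier genes, with SDs of 0.05 each, above 9.16% and 13.5% of genes of like level.

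**Figure D3:**
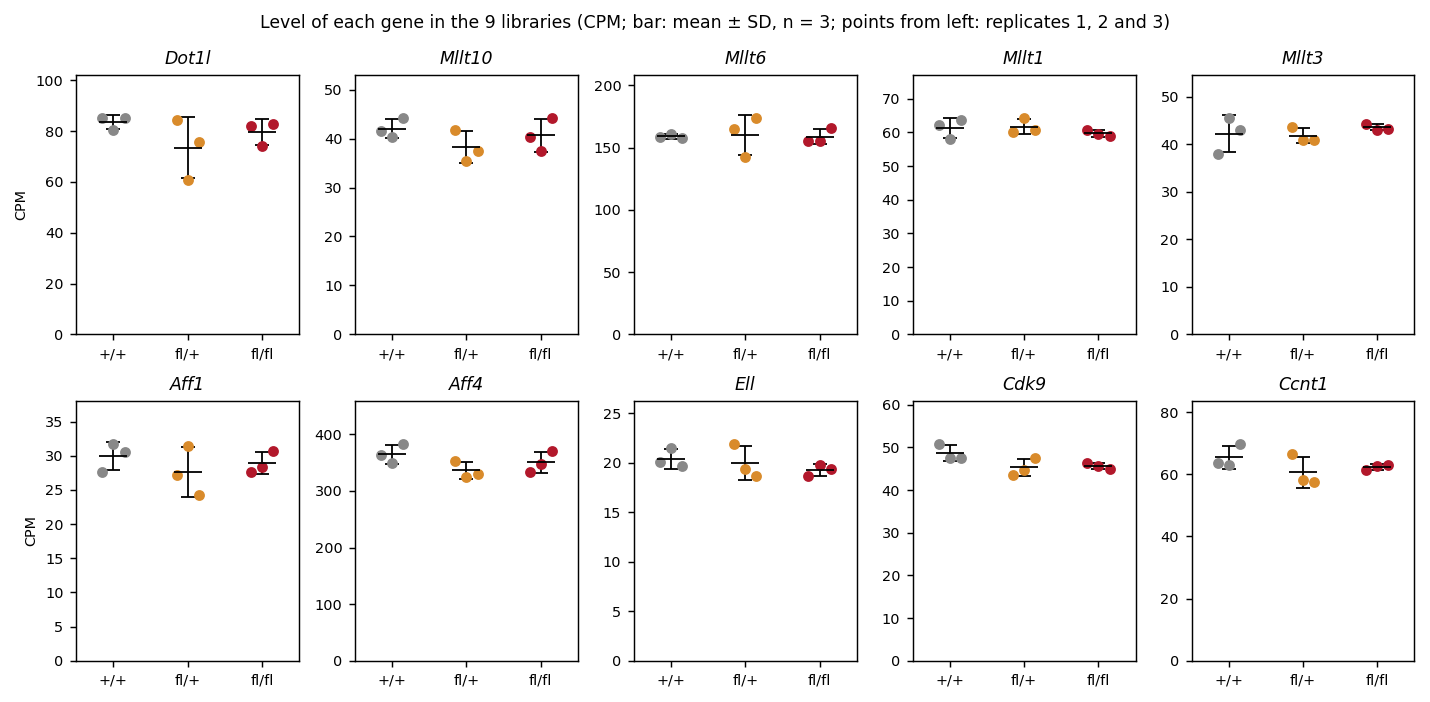
CPM of each of the 10 genes in every library, by Dot1l genotype, with the mean ± SD of 3 libraries as bars and replicates 1, 2 and 3 from left to right; each vertical axis starts at 0. Dot1l in Dot1l(fl/+) replicate 2 (60.6 CPM) is the point farthest below its group among the Dot1l values, and for 9 of the 10 genes both floxed groups overlap the controls, the exception being Cdk9.

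Mllt10 encodes AF10, whose binding is needed for full methylation by DOT1L in cells. It was measured at 41.5, 40.4 and 44.2 CPM in controls and at 41.8, 35.4 and 37.5 CPM in Dot1l(fl/+). Replicates 2 and 3 of the heterozygotes lay below every control and replicate 1 did not, so the groups overlapped. Its log2 fold change from the edgeR fit was -0.14 (SE 0.08, interval -0.31 to 0.03, adjusted p = 0.663), and it ran from -0.21 (without heterozygous replicate 1) to -0.09 (without replicate 2) when 1 library was left out.

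The homozygotes had 40.3, 37.5 and 44.2 CPM of Mllt10, giving a log2 fold change of -0.05 (SE 0.08, adjusted p = 0.999), which was 0.0053 without homozygous replicate 2. Exons of Mllt10 share 749 bases, or 12.7% of its exon length, with Dnajc1 on the opposite strand, and the strand setting of the counting is not given in the sources used here. Reads of the 2 genes may therefore not be separated in that stretch.

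Mllt6, the AF17 gene, stood at 158, 161 and 158 CPM in controls, at 165, 143 and 174 CPM in Dot1l(fl/+) and at 155, 155 and 166 CPM in Dot1l(fl/fl). The heterozygotes held both the lowest and the highest of the 9 values. Group means were 159 ± 1.78, 160 ± 16 and 159 ± 6.12 CPM (SD, n = 3), so the mean level was nearly the same while the spread between heterozygous libraries was wider. The log2 fold changes against controls were 0.01 (interval -0.13 to 0.15) in heterozygotes and -0.0021 (interval -0.14 to 0.14) in homozygotes.

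The readers of acylated histones showed no common direction. Mllt1 (ENL) was measured at 62.3, 58.1 and 63.6 CPM in controls, 60.2, 64.3 and 60.6 CPM in Dot1l(fl/+) and 60.8, 59.4 and 58.8 CPM in Dot1l(fl/fl). The 9 values lay between 58.1 and 64.3 CPM, and the groups overlapped. Its log2 fold changes against controls were 0.01 (SE 0.06) in heterozygotes and -0.04 (SE 0.06) in homozygotes.

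Mllt3 (AF9) had 38, 45.5 and 43 CPM in controls, 43.5, 40.9 and 40.9 CPM in Dot1l(fl/+) and 44.3, 43.1 and 43.2 CPM in Dot1l(fl/fl). Here the widest spread was among the controls, which enclosed all 6 floxed libraries. Mllt3 was the 1 gene of the 10 whose mean was above the controls in Dot1l(fl/fl), with a log2 fold change of 0.04 (SE 0.07, adjusted p = 0.999). A control library set this sign, since the value was -0.02 without control replicate 1 and 0.11 without control replicate 2.

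The AFF scaffolds hold the super elongation complex together. Aff4, the most abundant of the 10, was measured at 363, 349 and 383 CPM in controls, 354, 325 and 330 CPM in Dot1l(fl/+) and 334, 347 and 371 CPM in Dot1l(fl/fl). Heterozygous replicates 2 and 3 lay under all controls, and replicate 1 lay within their range. Heterozygotes against controls gave a log2 fold change of -0.12 (SE 0.06, interval -0.24 to 0.01), with an edgeR p of 0.061, the smallest of the 10 genes in any comparison, and an adjusted p of 0.611. For homozygotes it was -0.06 (SE 0.06, adjusted p = 0.999).

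Aff1 encodes AF4, the scaffold first known as a fusion partner of MLL in leukaemia. It had 27.6, 31.7 and 30.5 CPM in controls, 27.2, 31.4 and 24.3 CPM in Dot1l(fl/+) and 27.6, 28.3 and 30.8 CPM in Dot1l(fl/fl). Only heterozygous replicate 3 lay clearly below the rest, and the groups overlapped. With 1 floxed allele its log2 fold change was -0.12 (SE 0.09, adjusted p = 0.77), which became -0.03 without heterozygous replicate 3 and -0.22 without replicate 2.

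Ell, an elongation factor that suppresses pausing of the polymerase, had the fewest counts of the 10. It was measured at 20.1, 21.6 and 19.6 CPM in controls, 21.9, 19.4 and 18.7 CPM in Dot1l(fl/+) and 18.7, 19.8 and 19.4 CPM in Dot1l(fl/fl). The groups overlapped, and the log2 fold changes against controls were -0.03 (SE 0.09) and -0.08 (SE 0.09).

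Both P-TEFb genes had lower means in the floxed genotypes than in controls. Cdk9, the kinase that phosphorylates the polymerase tail and the pausing factors, was measured at 50.7, 47.6 and 47.6 CPM in controls, 43.6, 44.8 and 47.5 CPM in Dot1l(fl/+) and 46.2, 45.6 and 44.8 CPM in Dot1l(fl/fl). All 6 floxed libraries lay below all 3 controls, although the margin was narrow, with 47.5 CPM in heterozygous replicate 3 beside 47.6 in the lowest control. Cdk9 was alone among the 10 in this. Over all genes tested, 6.47% had non-overlapping lower values in Dot1l(fl/+), 5.25% in Dot1l(fl/fl) and 1.22% (216 genes) in the 6 floxed libraries together, beside which 1 gene of 10 is no result about this set of genes. None of the 10 was higher without overlap in Dot1l(fl/+) (6.84% of all genes) or Dot1l(fl/fl) (5.03%). Between homozygotes and heterozygotes none was without overlap, against 5.14% of all genes lower and 5.98% higher in homozygotes.

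For Cdk9 the edgeR log2 fold change was -0.1 (SE 0.06, interval -0.23 to 0.02, adjusted p = 0.665) with 1 floxed allele. With 2 floxed alleles it was -0.09 (SE 0.06, interval -0.22 to 0.03, adjusted p = 0.999). Neither passed the test. The 2 comparisons share the control libraries, of which replicate 1 was the highest, and without it the values were -0.07 and -0.06. Exons of Cdk9 contain 2 microRNA genes on the same strand, Mir2861 and Mir3960, which cover 82 and 73 bases.

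Ccnt1, the cyclin T that activates CDK9, stood at 63.7, 62.9 and 69.7 CPM in controls, 66.4, 58.2 and 57.5 CPM in Dot1l(fl/+) and 61.2, 62.7 and 63 CPM in Dot1l(fl/fl). Again heterozygous replicates 2 and 3 were below all controls and replicate 1 was not. The log2 fold changes were -0.11 (SE 0.07, adjusted p = 0.682) with 1 floxed allele and -0.07 (SE 0.07, adjusted p = 0.999) with 2. Leaving out 1 library moved the first between -0.18 (without heterozygous replicate 1) and -0.06 (without control replicate 3), and the second to -0.02 without control replicate 3. An antisense gene, 9330020H09Rik, overlaps 695 bases, or 7.59%, of its exons.

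Set against controls, 8 of the 10 genes were lower and 2 were higher in heterozygotes. Their median log2 fold change was -0.11, where 51.1% of all genes tested were lower and their median was -0.0034. Leaving out heterozygous replicate 3 gave -0.06, and leaving out control replicate 3 gave -0.07. None of the 10 had an unadjusted p under 0.05, against 8.39% of all genes, and no gene of the 17671 passed an adjusted p of 0.05 (0% of genes; DESeq2 on the same 9 libraries called 3, none of the 10).

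Between homozygotes and controls, 9 of the 10 were lower and 1 higher, with a median of -0.06 where that of all genes was 0.0009 and 49.6% were lower. Again none of the 10 had an unadjusted p under 0.05, against 3.93% of all genes, and no gene passed after adjustment (0% of genes; DESeq2 called 3, none of the 10). The median was -0.02 without Dot1l(+/+) replicate 3 and -0.04, with 7 of 10 lower, without Dot1l(fl/fl) replicate 2. The fold changes of the 10 genes ran from -0.09 (Cdk9) to 0.04 (Mllt3). Both comparisons use the same controls, so a control library that is high in a gene lowers both values.

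In homozygotes against heterozygotes 3 of the 10 were lower and 7 higher, with a median of 0.05, where 49.5% of all genes were lower. Without Dot1l(fl/+) replicate 2 the split was 5 lower with a median of 0.0037, and without Dot1l(fl/fl) replicate 3 the median was 0.02; with the length offset 4 were lower and the median was 0.02. None of the 10 had an unadjusted p under 0.05, against 6.48% of all genes, and none of the 17671 passed after adjustment (0% of genes; DESeq2 called 14, none of the 10). In the test for any difference among the 3 genotypes the p of the 10 genes lay between 0.163 (Aff4) and 0.973 (Mllt6), and 6.44% of all genes were under an unadjusted 0.05. Of all 30 intervals, the lowest bound was -0.39 (Dot1l in heterozygotes against controls) and the highest was 0.32 (Dot1l in homozygotes against heterozygotes).

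**Figure D4:**
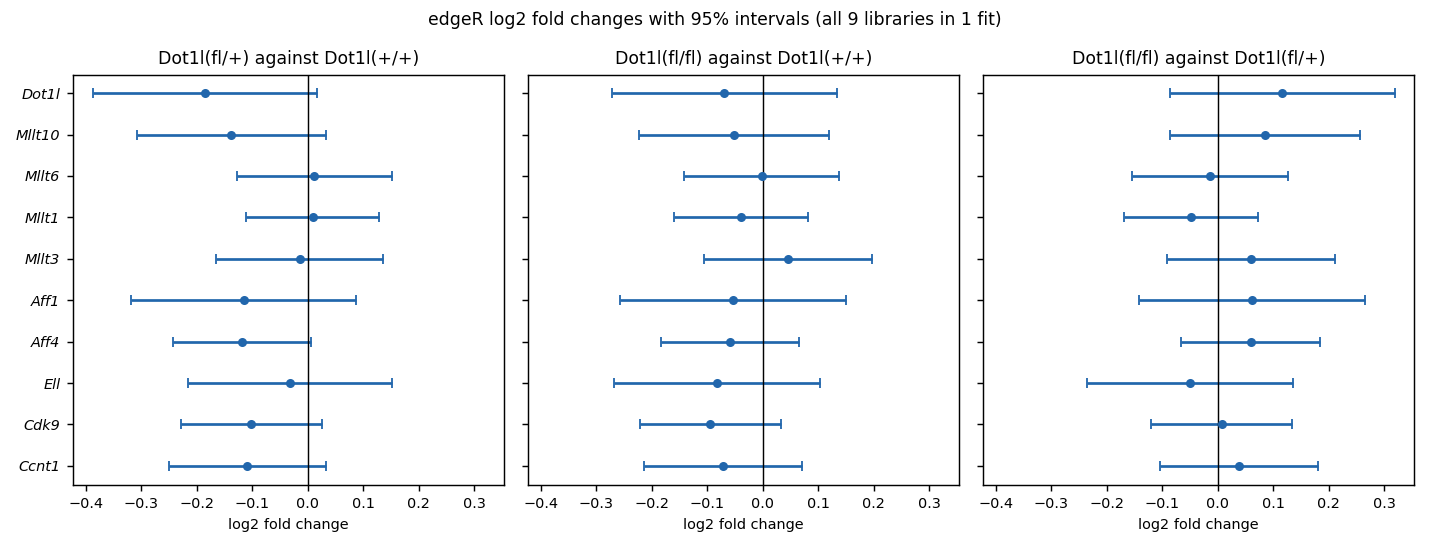
Log2 fold changes of the 10 genes with 95% intervals from 1 edgeR fit of all 9 libraries, in 3 panels for the 3 comparisons of genotypes. Every interval includes 0; most points lie to the left of 0 against controls (8 of 10 and 9 of 10) and 7 of 10 to the right in Dot1l(fl/fl) against Dot1l(fl/+).

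By library, the mean deviation of the 10 genes from the mean of all libraries was -0.09 in Dot1l(fl/+) replicate 2 and -0.06 in replicate 3 on the log2 scale, while replicate 1, at 0.03, stood with the controls (0.02, 0.04 and 0.07). The homozygous libraries were at -0.02, -0.03 and 0.04. In heterozygous replicates 2 and 3, 2 of the 10 genes each were above the mean of all libraries, against 7 or 8 in each control. Homozygous replicate 2 had 1 and replicate 1 had 3 of the 10 above that mean, while replicate 3 had 7.

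The same libraries were shifted in genes of like length. The 10 genes are long in their exons, with a median of 8078 bases against 3972.5 for the genes tested, and 6 of them belong to the longest of 5 classes of equal size. The median deviation of that class was -0.04 in both Dot1l(fl/+) replicates 2 and 3, while the class with the shortest exons stood at 0.1 and 0.08 there. Dot1l(fl/fl) replicate 2 was tilted the same way, with -0.02 for the longest and 0.05 for the shortest class. Dot1l(fl/fl) replicate 3 was tilted the other way, with 0.02 and -0.04. For heterozygotes against controls the median log2 fold change was lower in each longer class, at 0.08, 0.02, 0.0012, -0.02 and -0.04. Homozygotes against controls had the same order with smaller values, at 0.03, 0.01, 0.0046, -0.0028 and -0.02. With an offset for gene length in the edgeR fit the median of the 10 genes moved from -0.11 to -0.06, with 7 of 10 lower. Dot1l moved to -0.14, and Aff4, Ccnt1 and Aff1 moved from between -0.11 and -0.12 to between -0.06 and -0.07. In homozygotes against controls the median moved from -0.06 to -0.04, with 8 of 10 lower. The part of gene length in these values was otherwise not tested.

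**Figure D5:**
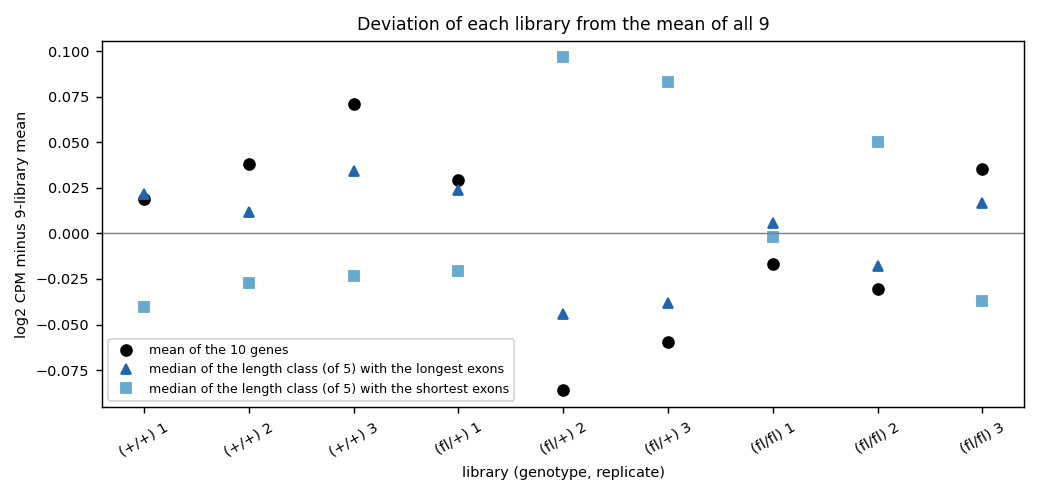
Deviation of each library from the mean of all 9 on the log2 CPM scale, as the mean of the 10 genes (circles) and the median of the classes of genes, of 5 by exon length, with the longest (triangles) and shortest exons (squares). In Dot1l(fl/+) replicates 2 and 3 the 10 genes are at -0.09 and -0.06, the longest class at -0.04 in each and the shortest class at 0.1 and 0.08. Dot1l(fl/fl) replicate 2 has the longest class at -0.02 and the shortest at 0.05, and replicate 3 has them at 0.02 and -0.04.

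The cell type markers stood as follows beside these values. With 2 floxed alleles, 10 of the 12 dopamine neuron markers were below controls at an unadjusted p under 0.05 (1.72% of all genes were) and none passed after adjustment; their median log2 fold change was -0.52, against -0.06 for the 10 elongation genes. At that p 2 of 6 microglia markers were higher (2.21% of all genes were) and 2 of 4 choroid plexus markers lower. With 1 floxed allele, 4 of the 12 dopamine neuron markers were below controls at that p (median -0.18, 4.09% of all genes). Above controls were 3 of the 4 choroid plexus markers (median 0.89), 3 of 8 oligodendrocyte markers (median 0.1) and 1 of 6 astrocyte markers (4.3% of all genes). The median of the 6 astrocyte markers was -0.04, opposite in sign to that 1 marker. In homozygotes against heterozygotes, 6 of 12 dopamine neuron, 4 of 8 oligodendrocyte and 4 of 4 choroid plexus markers were lower at that p (2.87% of all genes). Endothelial, GABA neuron and glutamate neuron markers had none under that p in any comparison. The part of cell composition in the values of the elongation genes was not tested.

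Genes of the surrounding machinery were taken from 8 lists of 55 genes, of which 54 were tested (Ell3 was not). Heterozygotes had 35 of the 54 below controls, at a median log2 fold change of -0.02. At an unadjusted p under 0.05, 5 were lower and 0 higher, where 4.09% and 4.3% of all genes were. No gene of the lists passed after adjustment in any comparison.

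The 5 genes came from 4 lists. Ice2, of the little elongation complex that serves small nuclear RNA genes, had 18.7, 18.3 and 18.3 CPM in controls and 15.8, 15.4 and 16.3 CPM in Dot1l(fl/+), without overlap (log2 fold change -0.22, SE 0.08, adjusted p = 0.541). Cdc73, a subunit of the PAF1 complex, had 75.3, 81 and 78.5 CPM in controls and 74, 72.1 and 63.7 CPM in Dot1l(fl/+) (-0.16, SE 0.06, adjusted p = 0.541). Both were lower in all 3 heterozygous libraries than in any control, as were 6.47% of all genes tested. The list genes were named for a low p in this same comparison, so the lack of overlap adds no support.

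Wac, an adaptor for ubiquitination of H2B, had 100.4, 102 and 100.1 CPM in controls and 99.4, 88.8 and 89.2 CPM in Dot1l(fl/+) (-0.12, SE 0.05, adjusted p = 0.568). Ccnt2, the other cyclin T, had 120, 132 and 137 CPM in controls and 127, 114 and 114 CPM in Dot1l(fl/+) (-0.13, SE 0.06, adjusted p = 0.595), so its groups overlapped. Eaf2, a partner of ELL, was near the lower limit of measurement with 0.993, 1.68 and 1.32 CPM in controls and 0.862, 0.883 and 0.916 CPM in Dot1l(fl/+) (-0.58, SE 0.25, adjusted p = 0.569). Wac and Eaf2 were lower in every heterozygous library than in any control, which adds no support for the same reason as with Ice2 and Cdc73.

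By list, all 8 tested genes of the super elongation and little elongation complexes had values below 0 in heterozygotes against controls (median -0.12), where 51.1% of all genes tested did. The pausing and elongation factors (7 of 12 lower, median -0.01), the PAF1 complex (3 of 6, 0.0055), H2B ubiquitination (4 of 6, -0.05), MLL and menin (5 of 7, -0.04), the control of P-TEFb (4 of 7, -0.04), other YEATS proteins with partners of AF9 or ENL (2 of 4, 0.0024) and other DOT1L-associated proteins (2 of 4, 0.01) lay nearer to the median of all genes. These counts were not tested, nor was the part of gene length or of single libraries in them. Of the lists, 4 hold none of the 5 genes under an unadjusted 0.05. Among homozygotes against controls the same complexes had 6 of 8 lower (median -0.06), and the pausing and elongation factors had 1 of 12 lower and 11 higher (median 0.05), none of the 12 under an unadjusted 0.05.

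Homozygotes against controls had 25 of the 54 lower and 29 higher, with a median of 0.0024, and 3 were lower and 0 higher at an unadjusted p under 0.05, where 1.72% and 2.21% of all genes were. Hexim1, which binds P-TEFb and keeps its kinase inactive, had 78.9, 69.6 and 73.8 CPM in controls and 68.4, 65.6 and 64.7 CPM in Dot1l(fl/fl) (log2 fold change -0.16, SE 0.07, adjusted p = 0.999). Zc3h8, of the little elongation complex, had 7.38, 7.3 and 7.36 CPM in controls and 6.16, 6.25 and 5.64 CPM in Dot1l(fl/fl) (-0.28, SE 0.12, adjusted p = 0.999). Kmt2a, the MLL methyltransferase whose fusions bring DOT1L to their targets, had 202, 192 and 209.7 CPM in controls and 182, 159 and 193 CPM in Dot1l(fl/fl) (-0.18, SE 0.08, adjusted p = 0.999).

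The groups did not overlap for Hexim1 and Zc3h8 and overlapped narrowly for Kmt2a. Over all genes tested, 5.25% were lower without overlap in Dot1l(fl/fl), and these genes were named for a low p in the same comparison. Against heterozygotes, homozygotes had a Ccnt2 level of 126, 132 and 135 CPM (log2 fold change 0.15, SE 0.06, adjusted p = 0.733). Rnf40, a ligase of H2B ubiquitination, had 62.8, 66.3 and 69.7 CPM in Dot1l(fl/+) and 59.9, 60.1 and 60.6 CPM in Dot1l(fl/fl) (-0.14, SE 0.06, adjusted p = 0.745). Those 2 were the list genes under an unadjusted 0.05 in that comparison, 1 in each direction, where 2.87% of all genes were lower and 3.6% higher.

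Over the 9 libraries the log2 level of Dot1l was most like those of Snapc4 (Pearson r 0.98, Spearman rho 0.883), Gm6245 (0.976, 0.933), Fam135b (0.973, 0.967), Gucy1a2 (0.972, 0.933) and Tet1 (0.971, 0.95), among 17670 other genes, of which 132 had an r over 0.9. The 9 points share the same libraries, and the low values of Dot1l(fl/+) replicate 2 and Dot1l(fl/fl) replicate 2 lay farthest from the median. Without those 2 libraries the r of the 5 genes was 0.966, 0.792, 0.867, 0.83 and 0.968; the genes were picked for their r over the same libraries, so these values are no independent support. Snapc4 is a subunit of the complex that starts transcription of small nuclear RNA genes, and Tet1 is a dioxygenase of methylated cytosine.

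Among the 9 partners Mllt10 had the highest r with Dot1l over the 9 libraries, 0.871 (rho 0.85), at rank 253 among all genes. Aff4 (0.699) and Ccnt1 (0.688) followed, but without the same 2 libraries Ccnt1 came first with 0.843, before Mllt10 (0.829) and Aff4 (0.748), so the order rests on those libraries. Mllt6 had 0.603, which turned to -0.706 without those 2 libraries. The r of Ell was 0.279. Cdk9 (0.322), Mllt3 (0.179), Aff1 (-0.189) and Mllt1 (-0.363) also changed sign without the same 2 libraries, to -0.0241, -0.096, 0.491 and 0.423. As deviations from the genotype means, r was 0.814 for Mllt10, 0.753 for Mllt6, 0.572 for Ccnt1 and 0.546 for Aff4, between -0.0262 and 0.288 for Cdk9, Mllt3 and Ell, and -0.373 and -0.553 for Mllt1 and Aff1.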

How the data were processed

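The 9 libraries were grouped by the Dot1l genotype in their labels. Directional libraries (NEBNext Ultra Directional, Illumina NextSeq) were sequenced and the authors deposited raw counts per Ensembl gene on GRCm38.p4; the submitters' processing notes name bcl2fastq 2.17, Trimmomatic 0.30 and DESeq2 1.10.1. The aligner, the counter, its strand setting and the annotation are not given in the sources used here. The deposited comparisons by the authors (mean normalized counts, log2 fold changes with SE, test statistics and p-values) were not used.

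Here counts were fitted with edgeR 4.0.16 in R 4.3.3 (TMM, filterByExpr, glmQLFit and glmQLFTest) with all 9 libraries in the same model and genotype as its only term; p-values were adjusted by Benjamini-Hochberg over the 17671 genes tested. SE and 95% intervals come from that fit. CPM are counts scaled with TMM factors, log2 CPM used a prior count of 2, and levels per length used the union of exons in GENCODE M21, which held 47310 of the 47729 identifiers. TMM factors were 0.988 to 1.01, and edgeR's common coefficient of variation between libraries was 8.81%. Replicates of a genotype differed by 4.48 to 16.6 times counting variance, so no library was a copy of another. Replicates are pools built from sets of the 3 genotypes from the same nests, but no label says that equal replicate numbers mark the same nests. Libraries were therefore not paired in the main fit, and its intervals between genotypes measure the spread between pools. That spread may include differences between nests, which a known pairing would take out.

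The 10 genes, the lists of the elongation machinery, the markers and the tests were chosen with earlier results of these data known. Named genes are the 10, each list gene with an unadjusted p under 0.05 in any comparison, and the 5 genes most correlated with Dot1l. The steps were tested on simulated data. Alternatives were DESeq2 1.42.0, its size factors, other filters, fits of 6 libraries, an offset for gene length (spline, 4 degrees of freedom per library), a block for the replicate number, and leaving out each library in turn. Annotation and figures were made in Python 3.11.15 with matplotlib 3.10.9, pandas 2.3.3 and numpy 2.4.6.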

Additional observations from a re-analysis of the deposited data

How the results depend on the processing

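Of 180 fold changes of the 10 genes in each of 3 comparisons (18 alternatives), none passed an adjusted p of 0.05, the lowest being 0.232, 0.905 and 0.457 in Dot1l(fl/+) and Dot1l(fl/fl) against controls and in Dot1l(fl/fl) against Dot1l(fl/+). The sign turned in 11, 7 and 10 of 180 values each; in 1 of these the value had moved by more than 1 SE of the main value, to just under 0 (Dot1l in Dot1l(fl/fl) against Dot1l(fl/+), -0.005878 without Dot1l(fl/+) replicate 2; leaving out other libraries gave up to 0.2253). In Dot1l(fl/+) against controls, 1 gene of the 10, Dot1l, had an unadjusted p under 0.05 with no filter on low counts, 1 with the replicate block and 1 with the length offset and replicate block, and 0 to 4 did when a library was left out (4 without Dot1l(fl/+) replicate 1: Dot1l, Mllt10, Aff4 and Ccnt1; 1 without Dot1l(+/+) replicate 2, Aff4; 1 without Dot1l(fl/+) replicate 2, Aff1). In Dot1l(fl/fl) against controls it was 0 throughout, and in Dot1l(fl/fl) against Dot1l(fl/+) 0 to 1 (Dot1l, without Dot1l(fl/+) replicate 1).

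Over all genes, calls at an adjusted p of 0.05 were 0 in each main test. In Dot1l(fl/+) against controls they were 251 with no filter, 1 and 45 with edgeR and DESeq2 on 6 libraries, 3 with DESeq2 on 9, and 0 to 5 with a library left out (5 without Dot1l(fl/+) replicate 2). In Dot1l(fl/fl) against controls they were 118 with no filter, 4 and 8 on 6 libraries, 3 with DESeq2 on 9 and 0 to 4 with a library left out. In Dot1l(fl/fl) against Dot1l(fl/+) they were 164 with no filter, 14 and 13 with DESeq2 on 9 and 6 libraries, and 0 to 12 with a library left out (12 without Dot1l(fl/+) replicate 2). For any genotype they were 337 with no filter, 21 with DESeq2 and 0 to 13 with a library left out (13 without Dot1l(fl/+) replicate 2). In the 3 comparisons none of these calls was of the 10 genes, and the cause of the differences was not tested.

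The replicate block gave 0, 3, 3 and 3 calls in these 4 tests, and with the length offset 0, 3, 4 and 5. With the replicate block Dot1l in Dot1l(fl/+) was at -0.19 (SE 0.07, edgeR unadjusted p of 0.016, adjusted p = 0.479). The study pooled sets from the same nests, so the pools were paired by design. Replicate numbers were not taken as that pairing in the main fit, since no label ties them to nests. Deviations of same-numbered libraries correlated by 0.0222 to 0.317, over 0.1 in 6 of 9 pairs. Of the 9 libraries, 7 correlated best with their own number, which is a hint from the data that the numbers mark the pairing. With the longest transcript as length, 8 levels and 3 ratios moved by more than 1 SD and no ratio crossed 1. The SD of Dot1l within genotypes, recomputed without each library after the data were seen, ran from 0.08201 to 0.1658. The 95% intervals of the 10 genes reached 0.12 to 0.2 log2 units to either side of the estimate, which limits what 3 pools a genotype can show.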
